A study of Mus musculus with 23 samples.

Results

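A set of 5 epidermal growth factor (EGF) family ligands, 3 ErbB receptors and the receptor Met were followed across 23 RNA libraries of mouse pancreatic ductal adenocarcinoma (PDAC) cells and organoids. The 9 genes, Areg, Ereg, Hbegf, Tgfa, Btc, Egfr, Erbb2, Erbb3 and Met, were taken by symbol from the 27207 genes of the count table. All 9 passed the filter on low counts, which left 11144 genes for testing.

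EGF family ligands are made as membrane-bound precursors that are cut by proteases such as ADAM17, and the released ligand binds receptors on the same or a neighbouring cell. Amphiregulin (Areg) and transforming growth factor alpha (Tgfa) bind EGFR, whereas heparin-binding EGF-like growth factor (Hbegf), epiregulin (Ereg) and betacellulin (Btc) also bind ERBB4. ERBB2 has no known ligand and acts as the preferred dimerization partner, ERBB3 binds neuregulins and has little kinase activity of its own, and MET is the receptor of hepatocyte growth factor (HGF), a scatter and branching factor for epithelia. In the pancreas, EGFR signaling is known to take part in tumor initiation.

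The libraries form 6 groups. KC cells were grown flat (2D, n = 6), in Matrigel for 13 days (n = 3), or in floating collagen gels for 7 days (n = 3) or 13 days, the last once in batch 1 (n = 5) and once in batch 2 (n = 3). KPC cells were grown only as 13-day collagen organoids in batch 2 (n = 3). KC and KPC are the genotype names of the labels, with Cre driven by Ptf1a in KC (Ptf1a Cre/+) and by Pdx1 in KPC (Pdx1 Cre/+). Per the labels, all KC libraries come from 1 mouse and all KPC libraries from another, so that replicates measure the spread between samples of 1 line, and genotype, Cre driver and cell line cannot be told apart. All groups other than those 2 named as batch 2 belong to batch 1. Medium was serum-containing DMEM, 2D cells were lysed directly, and organoids were freed with collagenase before lysis.

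Libraries held 1221451 to 2471058 counts each (median 1845921). A count stands for 1 captured RNA molecule, and values are in CPM, the count scaled to a common library total, after TMM scaling, which corrects totals for differences in RNA composition. Keratins of duct cells (Krt7, Krt8, Krt18, Krt19) were at 939 counts or more in every library, whereas Cldn4 had at most 1 count in any KC library. Of 4 endothelial and 2 acinar markers in the table none exceeded 3 counts in any library. The same held for 4 of 5 immune markers, the exception being Cd68, and for only 2 of 8 fibroblast markers. All 8 fibroblast markers together summed to 32.7 to 187 CPM. The 2D libraries fell into a set of replicates 1 to 3, with TMM factors of 0.74 to 0.77 and 4.99% to 5.76% mitochondrial counts, and a set of replicates 4 to 6, with factors of 1.04 to 1.06 and 2.51% to 3.01%. In bulk RNA a smaller share of expressing cells and less RNA per cell cannot be told apart.

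The ligand genes sit close together in part. In GRCm38, Epgn (epigen, chr5:91027464-91035215), Ereg (chr5:91074622-91093646), Areg (chr5:91139599-91148432) and, on the minus strand, Btc (chr5:91357261-91402994) follow each other within 376 kb and are the only protein-coding genes annotated between the first start and the last end. Epgn had at most 3 counts in any library and was above 0 in 3 of 23, while Ereg, Areg and Btc were detected in all. Tgfa lies apart from these at chr6:86195223-86275719, and Hbegf lies on another chromosome. The receptors are on chr11:16752203-16918158 (Egfr), chr11:98412470-98437716 (Erbb2), chr10:128567523-128589652 (Erbb3) and chr6:17463800-17573980 (Met). All are protein-coding. Small stretches of Ereg, Tgfa and Erbb2 exons (141, 118 and 9 bases) overlap a gene annotated on the opposite strand, and whether the counting used strand is not given in the sources used here.

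RefSeq promoters on GRCm38.p6 were found for 6 of the 9 genes. Areg and Btc are shown because both belong to the ligand cluster on chromosome 5 and differ in how far they moved between groups, and Egfr because its RNA moved opposite to theirs between day 7 and day 13. Each line gives the 250 bases before the annotated start, 5′ to 3′ on the gene's own strand, at chr5:91139349-91139598 (Areg, plus strand), chr5:91402995-91403244 (Btc, minus strand) and chr11:16751953-16752202 (Egfr, plus strand). Capitals mark a cAMP response element (CRE, letters TGACGTCA).
Areg: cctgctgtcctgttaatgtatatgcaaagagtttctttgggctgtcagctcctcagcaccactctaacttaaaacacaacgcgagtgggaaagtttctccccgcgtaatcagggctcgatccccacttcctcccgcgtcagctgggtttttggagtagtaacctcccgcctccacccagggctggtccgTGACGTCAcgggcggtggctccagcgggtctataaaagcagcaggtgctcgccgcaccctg
Btc: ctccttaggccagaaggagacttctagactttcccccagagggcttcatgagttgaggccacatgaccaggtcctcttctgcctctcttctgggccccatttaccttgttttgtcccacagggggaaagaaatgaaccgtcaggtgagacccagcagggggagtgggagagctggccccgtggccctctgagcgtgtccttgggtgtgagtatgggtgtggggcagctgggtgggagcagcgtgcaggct
Egfr: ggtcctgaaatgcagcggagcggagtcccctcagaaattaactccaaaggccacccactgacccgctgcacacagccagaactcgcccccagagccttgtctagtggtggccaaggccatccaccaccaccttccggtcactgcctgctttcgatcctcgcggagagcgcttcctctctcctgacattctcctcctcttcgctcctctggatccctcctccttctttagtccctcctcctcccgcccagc
Matches were sought on both strands for the CRE, an AP-1 site (TGANTCA), a TEAD core (GGAATG) and a GC box (GGGCGG). The CRE palindrome of Areg begins at position -61 counted back from the start, and 1.55% of 32851 promoters of this length hold one. The Met promoter holds an AP-1 match at position -54, as do 6.75% of promoters somewhere, and the Erbb2 promoter a TEAD match at position -88, as do 12.6%. Btc held none of the 4 motifs in this window, and Areg, Tgfa, Egfr and Met held at least 1 GC box, as did 32.7% of all promoters. No matches of different motifs overlapped in these promoters. A match is a stretch of letters only.

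Areg was highest in collagen at day 7 and in batch 2. It was at 205, 273 and 335 CPM in the 3 day 7 libraries, at 94.1, 95.9, 102, 121 and 129 CPM at day 13 in batch 1, at 105, 88.5 and 78.1 CPM in Matrigel, and between 58.1 and 98.8 CPM (median 80.4) in 2D. In batch 2, Areg was at 214, 268 and 241 CPM in KC and at 251, 271 and 305 CPM in KPC organoids. All day 7 libraries therefore lay above all other libraries of batch 1, and those of batch 2 lay within their range. In the order of the group means, KPC, day 7 and KC of batch 2 overlapped, as did the day 13 collagen libraries of batch 1, Matrigel and 2D.

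Ereg, like Areg, was highest in KPC organoids and at day 7. It was at 25.01, 27.5 and 49.0 CPM in collagen at day 7, at 13.0, 13.4, 17.7, 21.9 and 19.4 CPM at day 13 in batch 1, at 9.84, 8.28 and 10.5 CPM in Matrigel, and between 7.76 and 14.8 CPM (median 9.33) in 2D. In batch 2 it was at 29.8, 29.3 and 29.3 CPM in KC and at 31.9, 38.9 and 33.3 CPM in KPC organoids. The 3 Matrigel libraries lay below all collagen libraries. In 2D cells the values rest on 8 to 18 counts per library.

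Hbegf was the ligand gene with the widest span between group means, 1.95 on the log2 scale. It was at 251, 386 and 509 CPM in collagen at day 7, at 266, 286, 286, 347 and 298 CPM at day 13 in batch 1, at 168, 165 and 171 CPM in Matrigel, and between 125 and 169 CPM (median 156) in 2D. In batch 2, KC organoids held 544, 605 and 630.4 CPM and KPC organoids 282, 291 and 276 CPM. The KPC libraries thus lay beside the KC libraries of batch 1 and well below the KC libraries of their own batch. Day 7 replicate 1 (251 CPM) lay below all day 13 libraries of batch 1, while replicates 2 and 3 lay above them.

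Btc and Tgfa varied less. Btc was at 90.2, 89.1 and 116 CPM at day 7, at 72.8, 58.5, 59.8, 85.5 and 73.6 CPM at day 13 in batch 1, at 57.8, 61.9 and 63.5 CPM in Matrigel, between 57.7 and 77.3 CPM (median 66.6) in 2D, and in batch 2 at 97.3, 121 and 121 CPM in KC and 88.8, 108 and 102 CPM in KPC organoids. Tgfa was at 12.7, 23.6 and 27.3 CPM at day 7, at 14.8, 17.3, 15.3, 19.3 and 19.4 CPM at day 13 in batch 1, at 16.1, 17.0 and 13.99 CPM in Matrigel, and between 2.96 and 19.4 CPM (median 11.1) in 2D. Tgfa in batch 2 was at 23.2, 17.4 and 24.7 CPM in KC and 28.1, 19.2 and 21.1 CPM in KPC organoids. The Tgfa ranges of 2D, day 7 and day 13 overlapped, and both groups of batch 2 lay above the Matrigel libraries by small margins (17.4 CPM at the lowest against 17.0 at the highest). Tgfa rests on 3 to 64 counts per library.

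Among the receptors, Egfr was lowest in 2D and at day 7 and highest in batch 2. It was at 4.9, 5.42 and 4.69 CPM at day 7, at 9.27, 10.1, 10.05, 11.2 and 14.7 CPM at day 13 in batch 1, at 16.5, 20.1 and 19.8 CPM in Matrigel, and between 2.74 and 8.73 CPM (median 6.06) in 2D. In batch 2 it was at 24.5, 32.1 and 42.6 CPM in KC and 24.3, 25.1 and 33.8 CPM in KPC organoids. Matrigel, collagen of batch 1 at day 13 and collagen at day 7 did not overlap in that order, and the batch 2 libraries lay above all others. The day 7 values rest on 10 to 14 counts and the 2D values on 4 to 13.

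Erbb2 was lowest in 2D and at day 7. It was at 23.5, 30.6 and 33.7 CPM at day 7, at 45.9, 45.1, 49.8, 50.6 and 53.1 CPM at day 13 in batch 1, at 53.9, 51.0 and 51.9 CPM in Matrigel, and between 19.7 and 37.4 CPM (median 25.01) in 2D. In batch 2 it was at 52.3, 41.8 and 46.6 CPM in KC and 39.0, 37.1 and 42.8 CPM in KPC organoids. Day 7 and 2D overlapped each other and lay below every KC organoid library of day 13.

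Erbb3 had the widest span of the 9 genes, 2.73 on the log2 scale. It was at 6.37, 8.52 and 10.2 CPM at day 7, at 33.8, 27.8, 37.8, 59.6 and 63.6 CPM at day 13 in batch 1, at 43.7, 49.3 and 28.6 CPM in Matrigel, and between 7.76 and 17.7 CPM (median 13.7) in 2D. In batch 2 it was at 68.2, 59.96 and 54.6 CPM in KC and 30.7, 27.5 and 35.9 CPM in KPC organoids. No day 7 or 2D library reached any day 13 library. Within day 13 of batch 1, replicates 4 and 5 lay above replicates 1 to 3, as they did for all other members except Met. Replicates 4 and 5 held 4.83% and 4.44% mitochondrial counts, against 3.01%, 3.42% and 3.73% in replicates 1 to 3. The fourth receptor, Erbb4, was at 0 counts in all 23 libraries, which allows up to 3 counts per library.

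Met was nearly level in batch 1 and highest in KPC organoids. It was at 25.5, 22.9 and 15.8 CPM at day 7, at 15.8, 20.6, 20.1, 19.7 and 22.1 CPM at day 13 in batch 1, at 24.0, 25.7 and 22.7 CPM in Matrigel, and between 12.6 and 34.5 CPM (median 19.5) in 2D. In batch 2 it was at 22.5, 30.0 and 38.7 CPM in KC and 65.8, 52.7 and 52.8 CPM in KPC organoids. Only the KPC libraries lay outside the range of the others. Hgf itself had at most 1 count in any library.

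**Figure D1:**
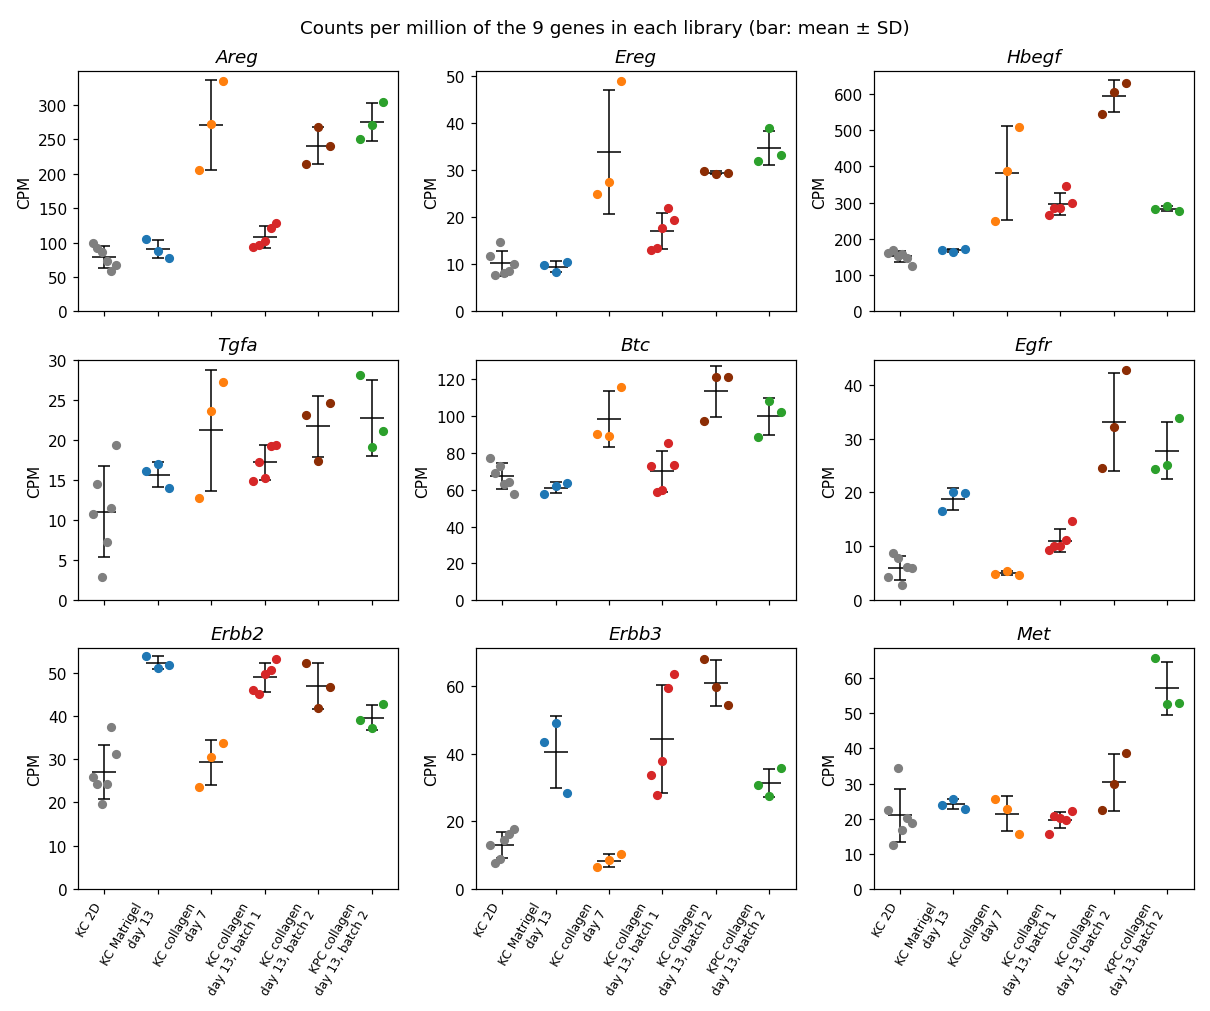
RNA level in CPM (linear y axis from 0) of the 9 genes in each of 23 libraries, 1 panel per gene, with 1 point per library and the mean ± SD of each group in black. Ligand panels peak at collagen day 7 or in batch 2, Erbb3 is lowest at day 7 (6.37 to 10.2 CPM), and Met is highest in KPC organoids (52.7 to 65.8 CPM).

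The comparison of collagen organoids at day 7, when branches extend, with day 13, when lumens form, asks which genes differ between early and late morphogenesis. A total of 4 ligand genes were higher at day 7 and 3 receptor genes lower. Areg was 2.5-fold higher (log2 fold change 1.32 ± 0.16 SE, adjusted p = 1.63e-07), Ereg 1.98-fold (0.99 ± 0.20, adjusted p = 0.000213) and Btc 1.4-fold (0.49 ± 0.13, adjusted p = 0.003). Hbegf was 1.29-fold higher (0.37 ± 0.15, adjusted p = 0.0399), with groups that overlap. Among the receptors, Erbb3 was 5.23-fold lower at day 7 (-2.39 ± 0.28, adjusted p = 1.56e-07), Egfr 2.18-fold (-1.12 ± 0.28, adjusted p = 0.00159) and Erbb2 1.66-fold (-0.73 ± 0.15, adjusted p = 0.000232). Tgfa and Met did not pass the threshold of 0.1, and their differences of 0.32 and 0.12 had intervals of ±2 SE from -0.20 to 0.83 and from -0.30 to 0.54. In this comparison 55.1% of all tested genes were called, 28.1% higher and 27.1% lower at day 7, against 7 of the 9 genes.

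Some limits touch the ligands here. The Hbegf call was lost without day 7 replicate 2 or 3 (adjusted p = 0.107 and 0.608) or day 13 replicate 1 (0.105). It was also lost with scaling by library size (0.113) and with no filter on low counts. With the KC libraries of both batches as the day 13 group, Hbegf turned to -0.09 and Btc lost its call (0.20, adjusted p = 0.373). Both genes also lost their calls with day 13 replicates 4 and 5 of batch 1 alone. KC organoids of batch 2, also from day 13, had Areg, Ereg and Btc levels within or beside the day 7 range, whereas their Erbb3 and Erbb2 levels lay with day 13 of batch 1 and their Egfr levels above it. Of 7 tested epithelial markers, Krt8 (0.43, adjusted p = 0.0375) and Krt18 (0.31, adjusted p = 0.0329) were higher at day 7 and Epcam and Sox9 lower. Epcam, an epithelial adhesion gene, and Cd68, a macrophage marker, were lower at day 7 as the receptors were, with group means from 5.87 (day 7) to 165 CPM (Matrigel) for Epcam and from 4.61 (day 7) to 32.9 CPM (Matrigel) for Cd68, and their part in the receptor differences was not tested.

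Between the matrices at day 13, which gave different organoid shapes, 3 of the 9 genes passed the test. Matrigel organoids had 1.76-fold less Hbegf RNA (log2 fold change -0.82 ± 0.15 SE, adjusted p = 0.000719) and 1.8-fold less Ereg RNA (-0.85 ± 0.25, adjusted p = 0.0292) than collagen organoids of batch 1. Egfr was 1.69-fold higher in Matrigel (0.76 ± 0.22, adjusted p = 0.0287). None of these 3 overlapped between the groups, nor did Met, which did not pass, and the other members overlapped. Of all tested genes 19.5% did not overlap. Of all tested genes, 12.9% were called, 6.62% higher and 6.29% lower in Matrigel (738 and 701 genes, against 654 and 300 with scaling by library size). The other 6 did not pass, with differences between -0.26 for Areg and 0.30 for Met, and the interval of Areg ran from -0.59 to 0.08, of Erbb3 from -0.57 to 0.33 and of Erbb2 from -0.18 to 0.38.

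Without Matrigel replicate 2, Ereg (adjusted p = 0.139) and Egfr (0.125) lost their calls, which left Hbegf as the only 1 of the 9 called. Ereg also lost its call with collagen day 13 replicates 1 to 3 alone (0.191), and Egfr with replicates 4 and 5 alone. With collagen libraries of both batches the Egfr difference was 0.01 (adjusted p = 0.988), and Egfr was 2.99-fold higher in KC collagen organoids of batch 2 than of batch 1, while Areg then passed the test at -0.79 (adjusted p = 0.0837). Immediate early genes, whose RNA rises within minutes of a stimulus or of handling, moved with Hbegf. Of 11 tested, 9 were lower in Matrigel and none higher, and their summed level was 1141 to 1227 CPM in Matrigel against 2782 to 3410 CPM in collagen of batch 1. The sum was 715 to 1259 CPM in 2D, 1502 to 2205 CPM at day 7, 4032 to 4648 CPM in KC and 2453 to 2708 CPM in KPC organoids of batch 2. Day 7 replicate 1 was lowest of its group both in this sum and in the sum of the 5 ligands. Likewise, 2D replicates 1 to 3 lay above replicates 4 to 6 in both sums, although Hbegf itself overlapped (154 to 169 against 125 to 158 CPM). Day 13 replicates 4 and 5 of batch 1 were instead lowest in immediate early genes (3033 and 2782 CPM) and highest in ligands (595 and 540 CPM). KC replicate 1 of batch 2 was highest in immediate early genes (4648 CPM) and lowest in ligands (908 CPM). The part of immediate early genes in the Hbegf differences was not tested.

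Compared with 2D cells, collagen organoids of day 7 differed in the ligands. All 5 were lower in 2D: Areg 3.47-fold (log2 fold change -1.79 ± 0.16 SE, adjusted p = 2.83e-09), Ereg 3.43-fold (-1.78 ± 0.22, adjusted p = 6e-07), Hbegf 2.51-fold (-1.33 ± 0.14, adjusted p = 6.3e-08), Tgfa 1.9-fold (-0.92 ± 0.28, adjusted p = 0.00879) and Btc 1.47-fold (-0.56 ± 0.13, adjusted p = 0.00112). Erbb3 was 1.62-fold higher in 2D (0.70 ± 0.32, adjusted p = 0.0817), with overlapping groups. That call was lost without any 1 of 2D replicates 1, 4, 5 and 6 or day 7 replicates 1 and 2 (adjusted p up to 0.24), with 2D replicates 1 to 3 alone (0.21, adjusted p = 0.708) and with scaling by library size (adjusted p = 0.21). Egfr, Erbb2 and Met did not pass, with intervals from -0.46 to 0.80, from -0.39 to 0.23 and from -0.49 to 0.36. Of all tested genes 51.2% were called, 26.4% higher and 24.8% lower in 2D (2947 and 2759 genes, against 1997 and 3324 with scaling by library size, which shifted the median of all genes by -0.16).

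Against collagen organoids of day 13, 2D cells were lower in both ligands and receptors, with 7 of the 9 genes lower and none higher. Hbegf was 1.95-fold lower in 2D (-0.96 ± 0.13, adjusted p = 1.45e-06), Ereg 1.73-fold (-0.79 ± 0.22, adjusted p = 0.00457), Areg 1.39-fold (-0.47 ± 0.14, adjusted p = 0.0101) and Tgfa 1.52-fold (-0.61 ± 0.26, adjusted p = 0.0576). The receptors Erbb3 (3.23-fold, -1.69 ± 0.22, adjusted p = 1.85e-06), Egfr (1.94-fold, -0.95 ± 0.24, adjusted p = 0.00286) and Erbb2 (1.76-fold, -0.81 ± 0.13, adjusted p = 2.22e-05) were lower without overlap. Hbegf did not overlap either, whereas the other members did, and 20.3% of all tested genes did not overlap. Of all tested genes 49.6% were called, 26.3% higher and 23.3% lower in 2D (2934 and 2592 genes, against 1692 and 3613 with scaling by library size and a median shift of -0.20). With 2D replicates 1 to 3 alone, Areg, Ereg and Egfr lost their calls (adjusted p = 0.257, 0.124 and 0.12), and Areg also with day 13 replicates 1 to 3 alone (0.155). Tgfa lost its call without 2D replicate 3 (0.108) or 4 (0.135) or day 13 replicate 4 (0.101) or 5 (0.103).

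Against Matrigel, 2D cells were lower in 3 receptors, and no ligand passed the test. Egfr was 3.28-fold lower in 2D (-1.71 ± 0.25, adjusted p = 1.74e-05), Erbb3 2.98-fold (-1.57 ± 0.25, adjusted p = 5.1e-05) and Erbb2 1.88-fold (-0.91 ± 0.15, adjusted p = 5.12e-05), each without overlap, which 26.7% of all tested genes showed. Of all genes in the fit 42% were called, 21.9% higher and 20.1% lower in 2D (2444 and 2236 genes, against 1059 and 3481 with scaling by library size). Scaling by library size alone, which shifted the median of all genes by -0.26, raised the number of the 9 genes called from 3 to 7, adding Areg, Hbegf, Tgfa and Met as lower in 2D.

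Matrigel organoids of day 13 set beside collagen organoids of day 7 differed in 4 ligands and 3 receptors, in opposite directions. Ereg (3.56-fold, -1.83 ± 0.25, adjusted p = 1.87e-06), Areg (2.99-fold, -1.58 ± 0.18, adjusted p = 2.06e-07), Hbegf (2.27-fold, -1.18 ± 0.17, adjusted p = 3.32e-06) and Btc (1.61-fold, -0.69 ± 0.15, adjusted p = 0.00055) were lower in Matrigel. Erbb3 (4.82-fold, 2.27 ± 0.31, adjusted p = 1.67e-06), Egfr (3.69-fold, 1.88 ± 0.28, adjusted p = 7.03e-06) and Erbb2 (1.78-fold, 0.83 ± 0.16, adjusted p = 0.000209) were higher. None of these 7 overlapped between the groups, as held for 57.9% of all tested genes, and Tgfa and Met did not pass. Matrix and day both differ here and cannot be told apart. Of all genes in the fit 50.6% were called, 24.9% higher and 25.7% lower in Matrigel (2776 and 2861 genes, against 2995 and 2075 with scaling by library size and a median shift of 0.11). The 6 comparisons within batch 1 share their groups, so that their values are not independent of each other.

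**Figure D2:**
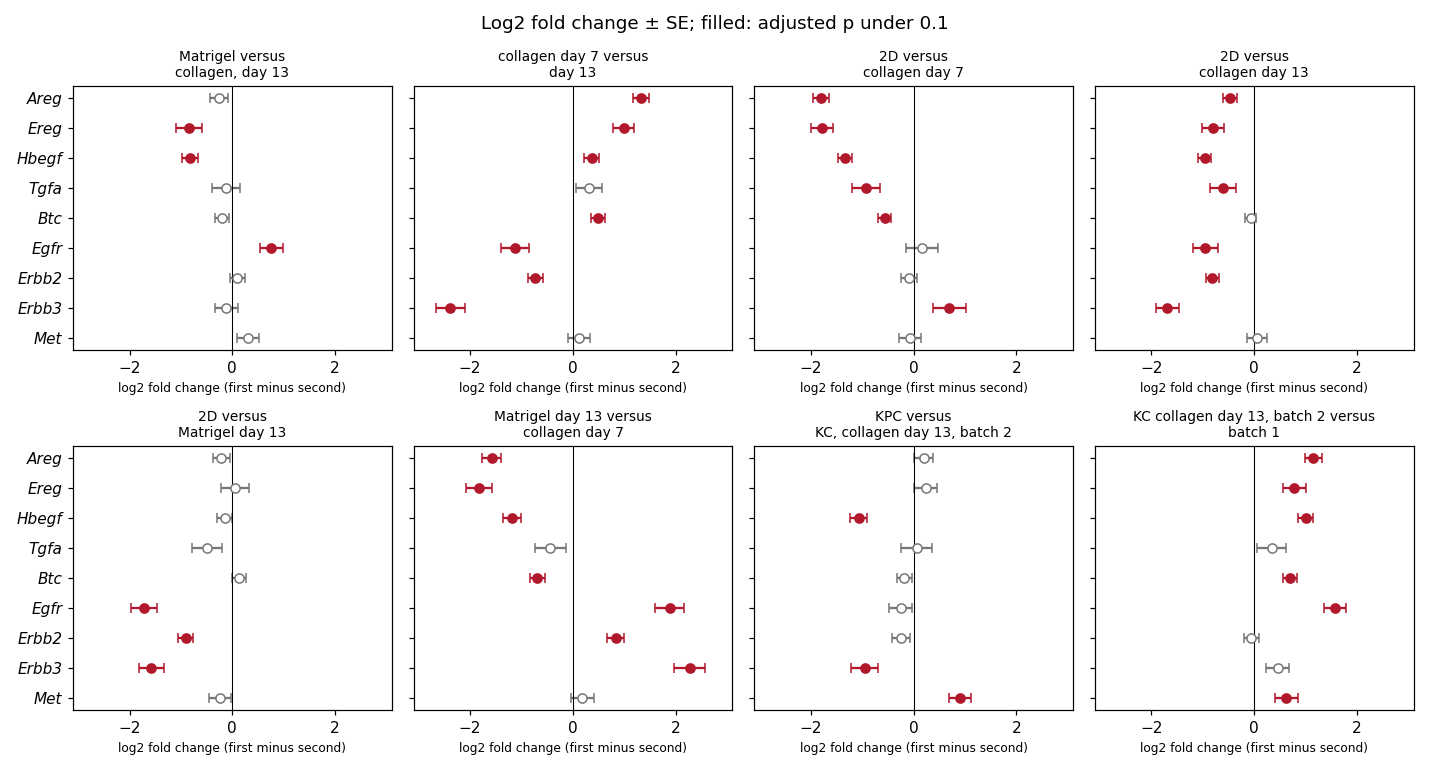
Log2 fold change ± SE (x axis, first group minus second) of the 9 genes (y axis) in 8 comparisons by edgeR, with filled red points for an adjusted p under 0.1 and open grey points for the rest. Ligands lie right of 0 and ErbB receptors left of 0 for day 7 against day 13, with Erbb3 at -2.39, and Met is called in KPC against KC (0.91) and in batch 2 against batch 1 (0.63).

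KPC organoids were compared with KC organoids of the same batch, matrix and day. By edgeR's quasi-likelihood test, Hbegf was 2.1-fold lower in KPC (log2 fold change -1.07 ± 0.17 SE, adjusted p = 5.49e-05), Erbb3 1.94-fold lower (-0.95 ± 0.26, adjusted p = 0.0148) and Met 1.87-fold higher (0.91 ± 0.22, adjusted p = 0.00551). Hbegf, Erbb3 and Met did not overlap between the groups, nor did Ereg, which was not called, and the other members overlapped. Of all tested genes 37.3% did not overlap. Areg (interval -0.16 to 0.55), Ereg (-0.22 to 0.69), Tgfa (-0.55 to 0.67), Btc (-0.48 to 0.12), Egfr (-0.69 to 0.20) and Erbb2 (-0.58 to 0.10) did not pass. Of the 11144 genes 19.9% were called, 9.58% higher and 10.4% lower in KPC (1068 and 1155 genes, against 1265 and 598 with scaling by library size and a median shift of 0.12). With the KC libraries of both batches, Hbegf lost its call (-0.52, adjusted p = 0.136), and Areg (0.81, adjusted p = 0.0277) and Ereg (0.70, adjusted p = 0.0388) gained one. Immediate early genes again moved with Hbegf, with 7 of 11 lower in KPC and none higher, for example Egr1 (-1.12 ± 0.21, adjusted p = 0.00037) and Atf3 (-1.62 ± 0.29, adjusted p = 0.000234).

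The Met difference came with a shift over the genes of chromosome 6. The 531 tested genes of chromosome 6, which also carries Tgfa, had a median log2 fold change of 0.39 in KPC against KC, and 79.7% of them were above 0. This was the highest median of 20 chromosomes, the next being 0.08 for chromosome 5 and the lowest -0.21 for chromosome 14, and it was -0.004 over all genes of other chromosomes. The 18 tested genes with a start within 5 Mb of Met had a median of 0.40, with 14 above 0, 7 called higher and 0 called lower, and the rest of chromosome 6 had a median of 0.39. Met at 0.91 lay above these medians, as did Lsm8 (0.88 ± 0.15) near it, whereas Cav1 (0.08 ± 0.19) and Cav2 (-0.04 ± 0.19), the caveolin genes beside Met, did not pass the test. Tgfa (0.06 ± 0.31), on the same chromosome, did not pass either. DNA copy number was not measured here.

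**Figure D3:**
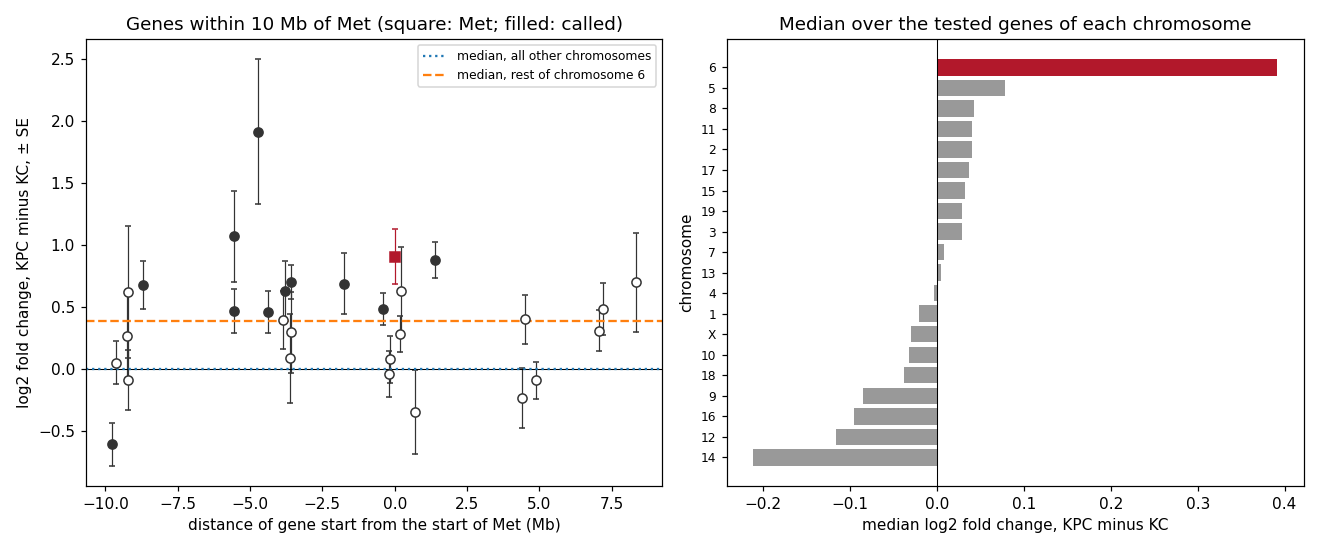
Left, log2 fold change of KPC minus KC ± SE for tested genes within 10 Mb of the start of Met against distance in Mb, with Met as a red square, called genes filled, and dashed and dotted lines for the medians of the rest of chromosome 6 (0.39) and of all other chromosomes (-0.004). Right, the median log2 fold change of each chromosome, with chromosome 6 in red at 0.39.

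The batches of KC collagen organoids at day 13, the same line, matrix and day, differed in 6 of the 9 genes, all higher in batch 2. Mitochondrial counts were 5.59% to 6.18% in KC libraries of batch 2 and 3.01% to 4.83% in those of batch 1, with TMM factors of 0.94 to 0.98 and 1.04 to 1.07, and the part of this in the differences was not tested. Egfr was 2.99-fold higher (log2 fold change 1.58 ± 0.21 SE, adjusted p = 4.48e-06), Areg 2.22-fold (1.15 ± 0.16, adjusted p = 6.28e-06), Hbegf higher by 0.9997 on the log2 scale (SE 0.14, adjusted p = 9.56e-06), Ereg 1.72-fold (0.78 ± 0.22, adjusted p = 0.00743), Btc 1.62-fold (0.69 ± 0.13, adjusted p = 0.000271) and Met 1.55-fold (0.63 ± 0.22, adjusted p = 0.0282). Of the 11144 genes 37.3% were called, 19.3% higher and 18.1% lower in batch 2 (2149 and 2013 genes, against 1416 and 2602 with scaling by library size and a median shift of -0.14). Met lost its call without batch 2 replicate 3 (adjusted p = 0.248), and Met and Ereg with day 13 replicates 4 and 5 of batch 1 alone (0.211 and 0.205). Tgfa, Erbb2 and Erbb3 did not pass. Erbb3 (adjusted p = 0.128) passed in 6 alternatives, among them without batch 1 replicate 4 or 5 (adjusted p down to 0.0282), and was at -0.01 with those replicates alone as batch 1. For Areg the shift between batches (1.15) was close in size to that between days (1.32).

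The sum of the 5 ligand genes and the sum of the 3 ErbB receptor genes placed the groups apart. Each count stands for a molecule and was not divided by transcript length. Ligand RNA summed to 584, 799 and 1036 CPM at day 7 against 460.4 to 595 CPM at day 13 in batch 1, 337 to 357 CPM in Matrigel and 279.7 to 359.8 CPM in 2D. Receptor RNA summed to 34.8, 44.6 and 48.6 CPM at day 7, 83.0 to 131 CPM at day 13 in batch 1, 100.2 to 120.3 CPM in Matrigel and 36.5 to 60.01 CPM in 2D. Egfr, the receptor named above as binding these ligands, made up 9.65% to 14.1% of receptor counts at day 7. At day 13 in batch 1 it made up 9.23% to 12.1%, and at most 30.05% in any library. The ratio that follows is therefore mostly against Erbb2 and Erbb3 RNA and does not measure ligand per binding receptor. There were 16.8, 17.9 and 21.3 ligand RNA molecules per receptor RNA molecule at day 7 and 4.11 to 5.68 at day 13 in batch 1. In Matrigel there were 2.83 to 3.37, and in 2D 4.85 to 9.08. Every day 7 library thus lay above, and every Matrigel library below, all other libraries in this ratio. KC and KPC organoids of batch 2 had 6.26 to 7.78 and 6.56 to 8.11, which overlapped, although both sums were lower in every KPC than in every KC library. Hbegf made up 55.2% to 60.7% of the ligand counts in KC collagen organoids of day 13 in batch 1 and 58.1% to 60.3% in batch 2, and 37.4% to 41.3% in KPC organoids. These sums are given as values without a test.

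**Figure D4:**
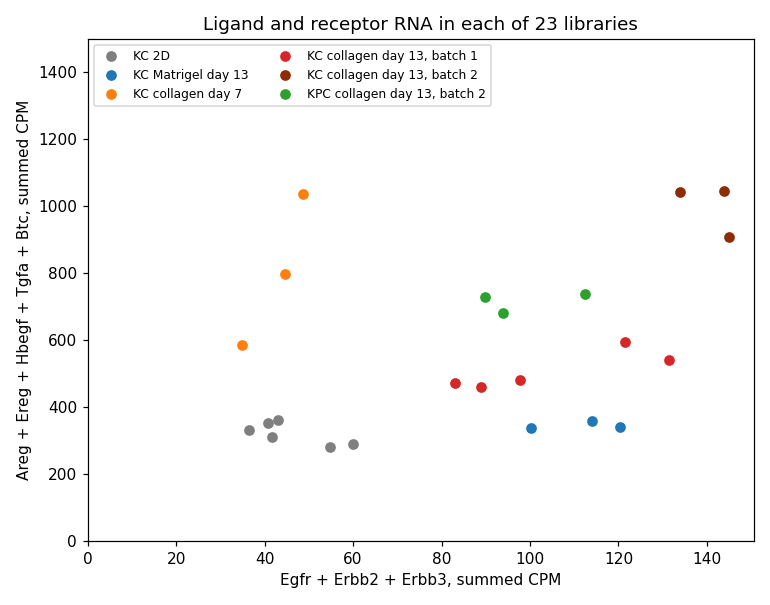
Summed CPM of the 5 ligand genes (y axis) against summed CPM of Egfr, Erbb2 and Erbb3 (x axis), 1 point per library and 1 color per group, both axes from 0. Day 7 libraries lie at high ligand and low receptor RNA (584 to 1036 against 34.8 to 48.6 CPM), Matrigel libraries at low ligand and high receptor RNA, and KC libraries of batch 2 are high in both.

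The pathway around these genes was described with lists of 75 further genes, of which 64 were tested. At day 7 against day 13, 20 were higher and 14 lower (53.1% called, against 55.1% of all genes), and between the matrices 4 were higher and 1 lower in Matrigel (7.81% called, against 12.9% of all genes). In KPC against KC, 6 were higher and 9 lower (23.4%, against 19.9%). In the remaining comparisons 43.75% to 53.1% of the 64 were called, between 37.3% and 51.2% of all genes.

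Of 6 further ErbB ligands only the neuregulins Nrg1 and Nrg4 passed the filter on low counts. Nrg1, an ERBB3 ligand, was at 16.6 ± 4.77 CPM (SD, n = 3) at day 7 and 3.49 ± 1.32 (n = 5) at day 13, a log2 fold change of 2.22 ± 0.32 SE (adjusted p = 2.61e-06), the comparison in which Erbb3 was 5.23-fold lower. Nrg4, an ERBB4 ligand, was highest in 2D at 17.9 ± 6.20 CPM (SD, n = 6) and passed against day 7 (2.62 ± 0.31 SE), day 13 (1.52 ± 0.23) and Matrigel (1.41 ± 0.27). Egf had at most 3 counts in any library.

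Of 6 tested genes of the HGF axis, 4 were lower at day 7 than at day 13, against 27.1% of all genes. In Matrigel, 4 were higher than at day 7, against 24.9%. In 2D, 5 were lower than in collagen of day 13 (23.3% of all genes lower) and 6 lower than in Matrigel (20.1%). Against day 7, 3 were higher and 1 lower in 2D (26.4% and 24.8% of all genes). Spint1, an inhibitor of HGF-activating proteases, was at 2.38 ± 1.43 CPM (SD, n = 3) at day 7, 27.6 ± 5.09 (n = 5) at day 13 and 40.7 ± 5.58 (n = 3) in Matrigel, with a log2 fold change of -3.46 ± 0.31 SE for day 7 against day 13. Hgfac, the HGF activator, was 3.09-fold lower at day 7 than at day 13 (-1.63 ± 0.16 SE, adjusted p = 1.09e-08). St14, the protease matriptase, rests on few counts in collagen. It was at 19.9 ± 2.27 CPM (SD, n = 3) in Matrigel and 2.15 ± 1.59 (n = 5) in collagen of day 13 (3.20 ± 0.35 SE, adjusted p = 3.55e-07), and was also higher in KPC than in KC organoids (2.01 ± 0.47, adjusted p = 0.00393), as was Spint1 (1.32 ± 0.21, adjusted p = 5.97e-05). Hgfac (-0.45 ± 0.17, adjusted p = 0.0854) and Spint2 (-0.37 ± 0.13, adjusted p = 0.0618), another inhibitor of these proteases, were lower in KPC, and the median of the 6 genes was -0.33.

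Of 8 tested genes of ligand shedding, 3 passed between Matrigel and day 7, against 50.6% of all genes, and 3 between batches, against 37.3%. In the former, Adam10 and Rhbdf1 were higher in Matrigel and Frmd8 lower. In 2D, 3 were higher and 2 lower against day 7 (26.4% and 24.8% of all genes) and likewise against day 13 (26.3% and 23.3%). Against Matrigel, 2 were higher and 3 lower in 2D (21.9% and 20.1%). Adam10 was lower and Cnih4 higher in 2D each time. At day 7 Furin was higher and Rhbdf1 lower than at day 13, Furin alone was higher in Matrigel than in collagen (0.45 ± 0.15 SE, adjusted p = 0.0721), and none passed in KPC against KC. Adam17 itself had group means of 20.9 to 24.98 CPM. Of 19 tested adaptor and signaling genes, 6 were higher and 3 lower at day 7 (28.1% and 27.1% of all genes), and none passed between the matrices. Grb7, an adaptor that binds ErbB receptors, was at 32.2 ± 4.84 CPM (SD, n = 3) at day 7 and was lower than at day 13 (-1.77 ± 0.18 SE, adjusted p = 1.5e-08). Of 13 receptor inhibitors and turnover genes, 3 were higher at day 7 (Eps15, Errfi1 and Socs5) and 2 lower (Cblc and Ptprj), against 28.1% and 27.1% of all genes. Cblc, which ubiquitinates active receptors, was 21.8 ± 4.64 CPM (SD, n = 3) at day 7 and lower than at day 13 (-1.57 ± 0.20 SE, adjusted p = 4.92e-07), and Cbl was lower in KPC organoids (-0.80 ± 0.27, adjusted p = 0.0492).

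Feedback and target genes of ERK, the kinase below these receptors, split. At day 7, 9 of 16 were higher and 3 lower than at day 13, against 28.1% and 27.1% of all genes, with Fosl1 (1.65 ± 0.15 SE, adjusted p = 1.94e-09), Ccnd1 (1.34 ± 0.14, adjusted p = 2.46e-08) and Etv4 (1.23 ± 0.26, adjusted p = 0.000356) among the higher. The 3 lower genes were Phlda1, Spry1 and Spry4. Between batches of KC at day 13, 7 of the 16 were higher and 1 lower in batch 2, against 19.3% and 18.1% of all genes. Epha4, Fosl1 and Spry2 were higher both there and at day 7, and Spry1 was lower in both. Phlda1 and Spry4 were higher in batch 2 but lower at day 7, and Ccnd1 and Etv4 were not called between batches. Between the matrices, Spry4, a feedback inhibitor, was lower in Matrigel (-0.97 ± 0.27, adjusted p = 0.0225) and Ccnd1 higher (0.55 ± 0.14, adjusted p = 0.0136). In KPC organoids 4 of the 16 were lower, Spry1 (-0.95 ± 0.23, adjusted p = 0.00464) and Spry4 (-0.76 ± 0.28, adjusted p = 0.0703) among them, and Fosl1 was higher (0.56 ± 0.18, adjusted p = 0.0302). Of all genes 10.4% were lower and 9.58% higher there. Of the 11 immediate early genes, 7 were lower and none higher at day 7 than at day 13, opposite to Areg, Ereg, Hbegf and Btc.

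Genes of the most similar pattern were sought for members whose 6 group means spanned more than 1 on the log2 scale, among 8641 genes with a mean of at least 10 CPM, by the root mean square (RMS) difference of centred group means. For Ereg the closest of all was its neighbour Areg (RMS difference 0.16), and for Areg it was Spire1 (0.15), an actin nucleator, with Ereg next (0.16). Hbegf was closest to Trib1 (0.17), Egfr to Zmynd8 (0.17), Erbb3 to Naip2 (0.13), Tgfa to Usp15 (0.07) and Met to Washc2 (0.15). Btc and Erbb2 spanned less than 1 and were not matched. The 6 points of each pattern share libraries and scaling, and the values are a description.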

How the data were processed

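RNA of 23 samples was sequenced from the 3′ end with unique molecular identifiers. Per the labels and methods the authors aligned reads to GRCm38 with the Drop-seq pipeline and deposited raw counts of molecules per gene, with no normalization. Groups came from the labels. Where same-group samples come from 1 line, p-values measure the spread between these samples only. All 23 libraries and 6 groups were fitted together with edgeR 4.0.16 (R 4.3.3, limma 3.58.1): TMM scaling, filterByExpr, quasi-likelihood F-test, a Benjamini-Hochberg adjusted p under 0.1 called, a prior count of 2. Errors of fold changes are SE and intervals ±2 SE. The fit was tested on simulated data. The SE and intervals hold the spread between samples, and the floor of 3 counts covers counting error only. Gene positions are from GENCODE M21 (GRCm38), promoters from RefSeq GRCm38.p6.

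The members and lists were chosen with earlier results of these data known. A rule picked pathway genes to name: in each comparison up to 4 called genes with the highest and 4 with the lowest log2 fold change. The higher group had to have a mean of at least 10 CPM. For each member spanning over 1, the 3 genes of closest pattern were sought. Other pathway genes were named outside this rule. Among them are Eps15, Errfi1, Socs5, Ptprj, Furin, Rhbdf1, Phlda1 and Spry1 between days, Adam10, Frmd8 and Adam17, and Hgfac and Spint2 in KPC. Immediate early and marker genes were given as counts and ranges, and Egr1 and Atf3 were named after their values were seen. Single markers such as Epcam, Sox9, Cd68, Krt8 and Krt18 were also named outside the rule. Alternatives were other scalings and filters, DESeq2 1.42.0, a fit of 2 groups alone, a threshold of 0.05, both batches pooled, a replicate block and leaving out each replicate. Subsets of 2D and day 13 libraries and removal of the trend with gene length over 20 classes were added after seeing the data. Some alleles and genes are not reported here.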

Additional observations from a re-analysis of the deposited data

How the results depend on the processing

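Of 42 called results for the 9 genes, 30 were called in every alternative that tested them (a minimum of 10 counts in every library left out Ereg, Tgfa, Egfr and Erbb3), 12 lost the call at least once and 1 changed sign, and of 30 not called, 20 were called in none. With scaling by library size, 954 genes were called between the matrices, and 7 of the 9 genes between 2D and Matrigel. With at least 10 counts in every library, 7050 genes were tested, with only Areg, Hbegf, Btc, Erbb2 and Met among the members. Of these genes 952 were called between the matrices and 4218 between days. In 2D against day 7, day 13 and Matrigel 4075, 3931 and 3339 were called, and in Matrigel against day 7, 3780. In the same order, 1, 4, 3, 3, 1 and 4 of the members tested passed. Leaving out a replicate gave 901 to 1427 genes and 1 to 3 members between the matrices. Libraries 4 and 5 of day 13 alone gave 2348 genes between batches. With 2D replicates 1 to 3 alone, 4 members were called against day 13, beside 6089 of 11089 genes. Causes were not tested.

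Other results, all but Hbegf between days not called, changed sign, and only some of them are given here. Among those not detailed, Ereg between 2D and Matrigel turned in 7 alternatives and Met between 2D and day 13 in 6. With both batches pooled, Hbegf (-0.0906) and Met (-0.13) turned between days, and Btc (0.22) and Egfr (0.59) between KPC and KC. Between the matrices, Erbb3 was 0.33 and Tgfa 0.0261 with day 13 replicates 1 to 3 alone. For 2D against day 7, Egfr was -0.0208 and Erbb2 0.0918 with 2D replicates 4 to 6, Met 0.13 with replicates 1 to 3, and Erbb2 0.00554 and Met 0.10 with the length trend removed. Leaving out a replicate gave ranges of -0.28 to 0.0592 for Erbb3 between the matrices, -0.0322 to 0.30 for Met between days, -0.26 to 0.0723 for Met between 2D and day 7, -0.22 to 0.0089 for Erbb2 there, -0.13 to 0.16 for Tgfa between KPC and KC.

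With a replicate block, Erbb3 between the matrices was 0.28, and Erbb3 between 2D and day 7 was 0.09 (adjusted p = 0.81). The block gave 3, 7 and 5 members and 1560, 6088 and 6072 of 11144 genes between matrices, between days and between 2D and day 7. Same-numbered samples did not deviate together (26 pairs, r from -0.119 to 0.188, 2 over 0.1), so the numbers were not taken as pairs. Values of Egfr and Erbb3 at day 7 and in 2D are limited by counts of 4 to 34.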
